A study of Mus musculus with 4 samples.

Results

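The genes of the p53 pathway described here are 34 mouse genes, given by symbol: the p53 gene Trp53 and its relatives, the proteins that restrain or release p53, and targets that act in cell cycle arrest, apoptosis and DNA repair. A row of the deposited tables was taken as a member where its gene identifier carried one of these symbols in the mouse GENCODE annotation. All 34 symbols matched 1 row each, among 50600 genes. All 34 are annotated as protein-coding, and they lie on 15 chromosomes, with 5 members each on chromosomes 4 and 10.

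The cells were primary T helper 17 (Th17) cells of C57BL/6NJ mice, CD4 T cells named for their cytokine interleukin 17, and the labels point to a protocol for differentiating CD4 T cells. The 4 RNA-seq libraries are replicates 1 to 4 of 1 group, with no treatment, mutant allele or control arm in the labels, no age, 72 hr in the file headers and 1 donor identifier for 4 biosamples. Nothing says whether the biosamples came from separate animals, so p-values measure the spread between these samples, which may be technical. With 1 group, each library was set against the other 3, which compares libraries and not conditions, and the lone library was taken to vary like the others.

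p53 is a transcription factor that is made and destroyed continuously in dividing cells and is stabilised when DNA is damaged, when ribosome assembly is disturbed or when an oncogene drives division. It then switches on genes that stop the cell cycle, repair DNA or start apoptosis, and it switches on its own inhibitors, which closes a feedback loop. Activated T cells divide fast, and p53 is known there as a brake on clonal expansion.

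p53 binds DNA as a tetramer at a pair of decamer motifs, each called a p53 half-site. The promoters of the members, from 250 bases before to 50 bases after each start in RefSeq on GRCm38.p6, the build called mm10, were searched for it on both strands, since the motif reads the same on each. Windows were found for 26 of the 34 members. Pairs with a spacer of 0 or 1 base and at most 2 mismatches over both motifs, none of them at the core C and G, stood in 5 of the 26 members (19.2%): Cdkn1a, Ccng1, Bax, Gtse1 and Trp73. The same search found them in 0.807% of 27025 genes. An exact single half-site stood in 12 of the 26 members (46.2%), against 9.55% of all genes. The core tetramer CATG was in 36.1% of the 36 member windows and in 61.1% of all 32851 windows. Windows were also searched for 34 p53 targets outside the members. Of these, 3 (8.82%) held a pair, Rps27l, Ckap2 and Zfp365, and 11.8% held an exact single half-site. The stretches printed here are those of the members whose window held the paired motif, with 1 further target beside them. That target is Rps27l, at a mean of 904 TPM, against 29.9 TPM for Ckap2 and 21.8 TPM for Zfp365, which are not printed. The Gtse1 pair, which runs into the transcript, is not printed. Capitals mark the paired half-sites, and each stretch is written 5′ to 3′ on the gene's own strand. A match is a description of letters and not of binding.

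The Cdkn1a stretch is chr17:29090908-29090967 on the plus strand with its pair at −51 to −32 from the start, the Ccng1 stretch is chr11:40755442-40755501 on the minus strand with its pair at −195 to −176, and the Bax stretch is chr7:45467059-45467119 on the minus strand with its pair at −201 to −181. The Trp73 stretch is chr4:154097200-154097259 on the minus strand with its pair at −66 to −47. That start lies inside the annotated gene, chr4:154056253-154140208, and is 1 of 2 with a window for Trp73. The other Trp73 window held no pair. Cdkn1a likewise had 2 windows, 1 of them with a pair. The Rps27l stretch, from a target outside the members, is chr9:66946276-66946335 on the plus strand with its pair at −117 to −98.
Cdkn1a: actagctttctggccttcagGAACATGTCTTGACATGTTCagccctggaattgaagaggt
Ccng1: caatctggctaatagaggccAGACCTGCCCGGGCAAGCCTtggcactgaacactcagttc
Bax: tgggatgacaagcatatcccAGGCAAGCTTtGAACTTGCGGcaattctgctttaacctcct
Trp73: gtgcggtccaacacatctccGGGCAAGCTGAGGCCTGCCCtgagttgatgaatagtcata
Rps27l: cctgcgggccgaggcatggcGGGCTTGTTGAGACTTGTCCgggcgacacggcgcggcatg
The Cdkn1a, Ccng1 and Rps27l pairs had 1 mismatch and the Bax and Trp73 pairs 2, and only the Bax pair among these 5 has a spacer base, shown in lower case. Cdkn1a, Ccng1, Bax and Rps27l were among the most abundant genes of the pathway in these cells, and Trp73 was barely detected.

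Total counts were 33123029 to 37746767 per library, and 3 counts, the limit that a count of 0 allows, stood for 0.0795 to 0.0906 CPM, counts scaled to a fixed library total. Replicate 2 stood apart from the others. A chi-square statistic of the counts, per degree of freedom, was 44.6 to 49.4 for its pairs with the other libraries and 4.44 to 6.61 for pairs among replicates 1, 3 and 4. The 8 general T cell markers summed to 4303 TPM in replicate 2 and to 4255 to 4411 TPM in replicates 1, 3 and 4, where TPM is a gene's count divided by its length and scaled to a fixed sum per library. Their members went both ways: 4 of the 8 had a positive log2 change in replicate 2, with values from −0.11 for Cd2 to 0.22 for Cd5. Cd5, the most abundant, had 1556 TPM in replicate 2, against 1373, 1367 and 1432 TPM in replicates 1, 3 and 4. The 7 Th17 markers summed to 1434 TPM in replicate 2 and to 5456 to 6218 TPM in the others, and 6 of the 7 were lower in replicate 2. The 8 epithelial markers summed to 514 TPM in replicate 2 and to 1.66 to 2.23 TPM in the others, nearly all of it Sprr2d and Sprr1a, while Krt14, Krt8 and Cdh1 were at 0 in every library. Of 4 NK cell markers 2 had enough counts to test, Eomes (log2 change 3.10 in replicate 2) and Klrd1 (−0.20), with Ncr1 at 0 everywhere. Of 7 myeloid markers 6 were tested, among them Flt3 (3.58) and Adgre1 (−0.54), with Lyz2 at 0. The NK cell markers summed to 63.8 TPM in replicate 2 and 8.57 to 11.9 TPM in the others, and the myeloid markers to 29.7 TPM in replicate 2 and 18.1 to 19.3 TPM in the others. The 4 tested B cell markers had log2 changes of −0.48 to 2.70, resting on at most 43 counts per library. Of 4 CD8 T cell markers 2 were tested, Cd8b1 (−0.47) and Prf1 (−1.74). Of 6 stromal markers 3 were tested, Pecam1 (0.29), Col1a1 (−0.19) and Pdgfra (−1.58). Sums were 2.16 TPM in replicate 2 and 1.75 to 2.11 TPM in the others for B cell markers. They were 32.8 TPM in replicate 2 and 45.7 to 52.5 TPM in the others for CD8 T cell markers, and 21.9 TPM in replicate 2 and 17.6 to 19.8 TPM in the others for stromal markers. The part of these marker differences in the results on p53 genes was not tested.

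The first question was which p53 pathway genes these cells expressed. Most of the pathway was expressed well above 1 TPM. Of the 33 members tested, 31 lay above it, 1 below and 1 had no call. This was an F test built on edgeR quasi-likelihood fits, with Benjamini-Hochberg adjustment over 17337 genes. Over all genes tested 70.7% lay above 1 TPM and 16.5% below. Without replicate 2 the members gave the same counts, beside 74.1% and 14.5% of 16610 genes. The median of the members' mean levels was 64.9 TPM, with 13 members at 100 TPM or more, 26 at 20 TPM or more and 3 under 1 TPM. Cdkn1a, the gene of the cyclin-dependent kinase inhibitor p21, led at 1221 ± 106 TPM (mean ± SD, n = 4), followed by Ccng1, Bax, Phlda3 and Perp. The SDs of Cdkn1a and the next 3 take in replicate 2, which lay above the other libraries in each.

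**Figure D1:**
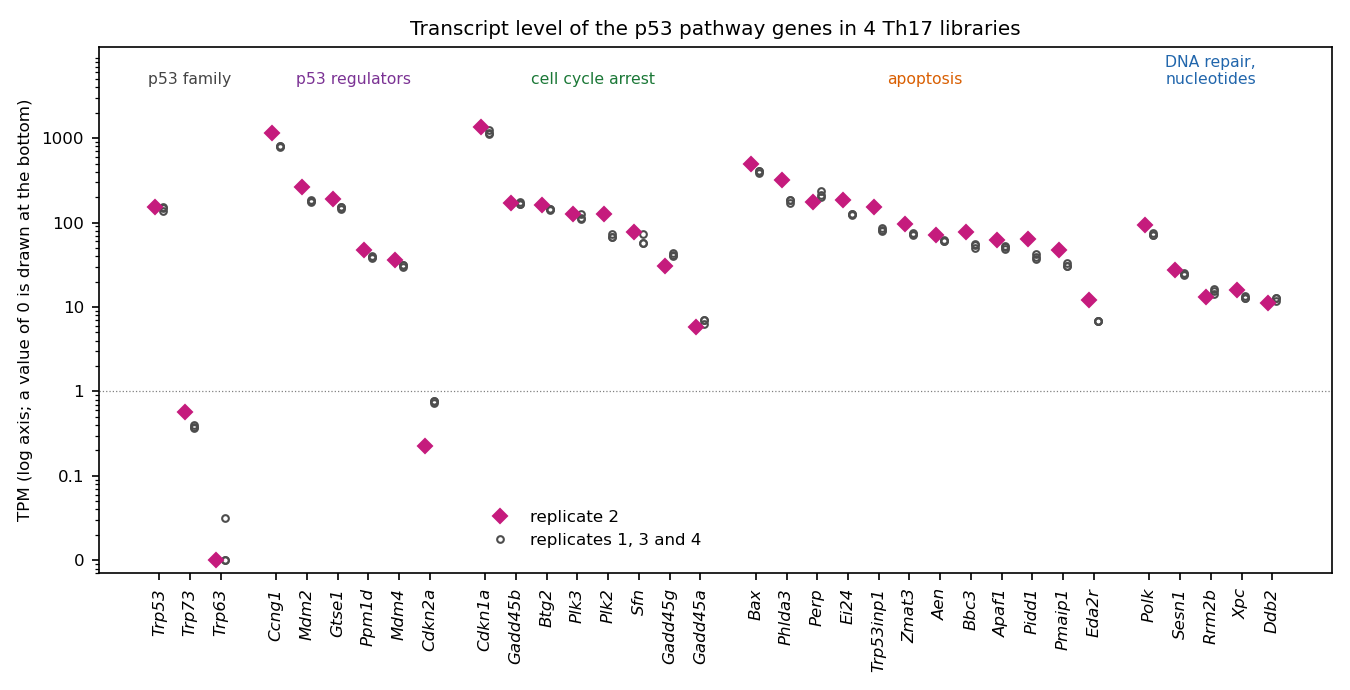
Level of each of the 34 p53 pathway genes in TPM (log axis, 0 drawn at the bottom), grouped by role; diamonds are replicate 2, circles replicates 1, 3 and 4, and the dotted line marks 1 TPM. Of these, 31 genes lie above the line, Trp73, Trp63 and Cdkn2a below it, and the diamond is above all circles in 26 genes.

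Of the p53 family, Trp53 was the only member above 1 TPM. Trp53 (ENSMUSG00000059552.13, chr11:69580359-69591873 on mm10, plus strand) had 154 TPM in replicate 2, against 150.1, 138 and 151 TPM in replicates 1, 3 and 4, so that replicate 2 lay just above a narrow range. Its difference did not pass the test (log2 change 0.13 ± 0.054 SE, adjusted p = 0.114), but it did without replicate 1 (log2 change 0.15, adjusted p = 0.0312). A pseudogene, Trp53-ps, has a row of its own in the tables, and reads that match both cannot be assigned. Trp73, which like p53 can drive p21 and Puma, had 0.568 TPM in replicate 2, against 0.401, 0.378 and 0.371 TPM in replicates 1, 3 and 4, from 36 counts in replicate 2 and 22, 22 and 23 in the others. It was the 1 member below 1 TPM by the test (log2 level −1.22, adjusted p = 0.00142), and its difference between libraries was not called (log2 change 0.63 ± 0.46 SE, adjusted p = 0.389). Trp63, the relative that governs epidermal stem cells, had 0 counts in replicates 2, 1 and 3 and 3 counts in replicate 4, too few to test.

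The members and the related lists were chosen with earlier results of these data known, so their directions in replicate 2 are not independent evidence. Across the members, transcripts were more abundant in replicate 2. Of the 33 tested, 23 were higher in replicate 2 than in replicates 1, 3 and 4, 2 were lower and 8 had no call, where 10.9% of all genes tested were higher, 10.2% lower and 21.1% either (edgeR quasi-likelihood test, adjusted p under 0.05). With scaling by total counts 21 members were higher and 2 lower, beside 9.27% and 11.4% of all genes, and with DESeq2 22 were higher and 0 lower, beside 10.5% and 10.4% of the genes to which it gave an adjusted p. With a robust prior 23 were higher and 1 lower, beside 11.7% and 10.9%. The median log2 change was 0.35 over the members and −0.01 over all genes, and 27 of the 33 values were positive, against 49.1% of all genes. In TPM, replicate 2 lay above all other libraries in 26 of the 34 members, below all in 6 and within their range in 2, beside 28.2% of all genes above and 43.2% below. No called change reached 2-fold: 9 members were higher by over 1.5-fold, as were 3.31% of all genes, and the highest, Plk2 and Trp53inp1, had a log2 change of 0.95. Summed over the members, TPM stood at 5812 in replicate 2 and at 4737, 4465 and 4553 in replicates 1, 3 and 4. In bulk RNA, fewer cells of a type and less RNA per cell cannot be told apart. Fitted log2 changes lie 0.06 above the log2 ratio of the TPM values, because the libraries are scaled on the bulk of genes.

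**Figure D2:**
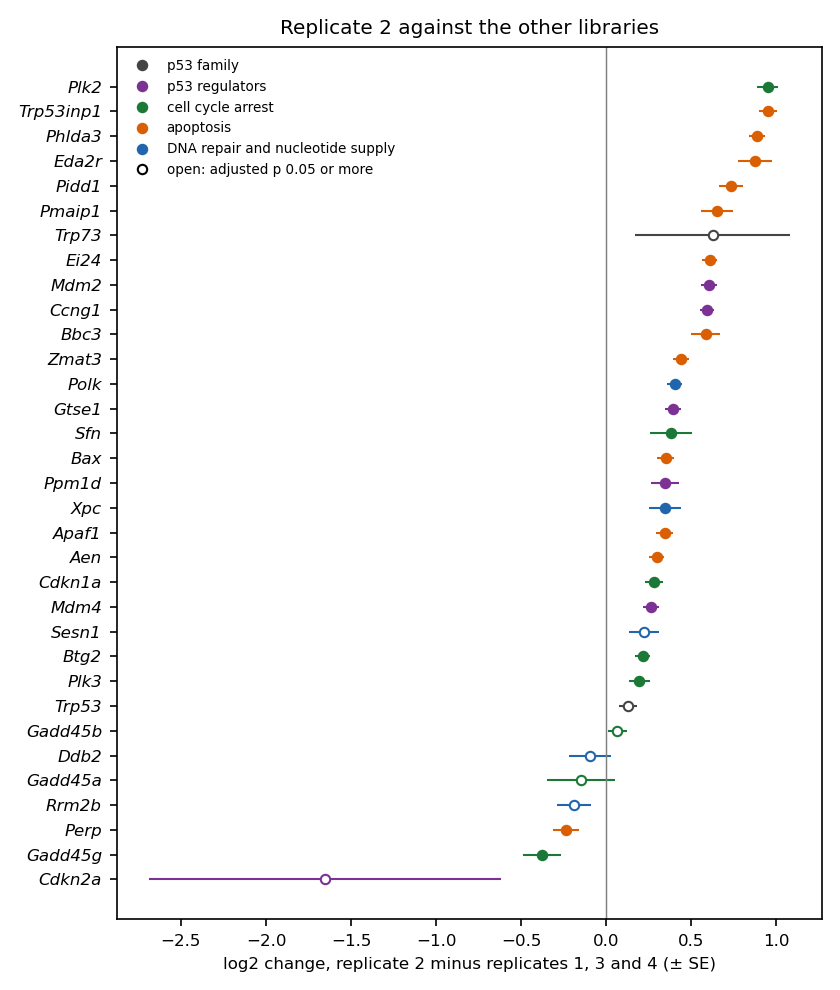
Log2 change of the 33 tested p53 pathway genes in replicate 2 over replicates 1, 3 and 4, from the edgeR fit, with bars of 1 SE, coloured by role; filled points have an adjusted p under 0.05. Plk2 and Trp53inp1 are at the top at 0.95, Perp and Gadd45g are the 2 filled points left of 0, and Cdkn2a has the widest bar.

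Among the genes of p53 regulators, 5 of 6 had a positive log2 change in replicate 2, beside 49.1% of all genes, with a median of 0.37. Mdm2 (chr10:117688875-117710758, minus strand), the ubiquitin ligase that sends p53 to the proteasome and is itself a p53 target, had 264 TPM in replicate 2, against 181, 177 and 185 TPM in replicates 1, 3 and 4 (log2 change 0.60 ± 0.045 SE, adjusted p = 7.23e-07). The 3 other libraries lay close together, and replicate 2 stood clear of them. Mdm4, which binds and silences p53 without degrading it, had a smaller fitted change, a difference that was not tested. It had 35.6 TPM in replicate 2, against 29.9, 31.0 and 31.9 TPM in replicates 1, 3 and 4 (log2 change 0.26 ± 0.047 SE, adjusted p = 0.0012), and the Mdm2 to Mdm4 ratio of TPM was 7.42 in replicate 2 and 5.86 ± 0.18 in replicates 1, 3 and 4 (SD, n = 3). Reads shared with the row Mdm4-ps cannot be assigned.

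Ccng1, which encodes cyclin G1, a p53 target that works with the phosphatase PP2A on Mdm2, was the second most abundant member. It had 1147 TPM in replicate 2, against 801, 799 and 781 TPM in replicates 1, 3 and 4 (log2 change 0.59 ± 0.042 SE, adjusted p = 5.45e-07), with no overlap. Gtse1, a microtubule-binding protein described in human cells as a restraint on p53, had 189 TPM in replicate 2, against 151, 145 and 155 TPM in replicates 1, 3 and 4 (log2 change 0.39 ± 0.047 SE, adjusted p = 4.90e-05). Ppm1d, the phosphatase that removes damage-induced phosphates from p53 and its kinases, had 47.5 TPM in replicate 2, against 37.6, 39.8 and 39.4 TPM in replicates 1, 3 and 4 (log2 change 0.35 ± 0.082 SE, adjusted p = 0.00854). Replicate 2 was the highest library for both genes. Cdkn2a, whose locus makes p16 and the Mdm2 inhibitor p19Arf from overlapping transcripts counted here as 1 gene, was nearly silent. It had 3 counts in replicate 2, against 9, 9 and 10 in replicates 1, 3 and 4, or 0.224 TPM against 0.775, 0.731 and 0.762 TPM. That difference was not detectable at this depth (log2 change −1.65 ± 1.04 SE, adjusted p = 0.306), nor was its level called against 1 TPM (log2 level −0.69, adjusted p = 0.149).

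In the cell cycle arrest group, 5 of 8 genes were higher in replicate 2 (62.5%) and 1 was lower (12.5%), beside 10.9% and 10.2% of all genes, with a median log2 change of 0.20. Cdkn1a (ENSMUSG00000023067.13, chr17:29090979-29100722, plus strand), whose promoter pair is printed above, had 1364 TPM in replicate 2, against 1237, 1128 and 1154 TPM in replicates 1, 3 and 4 (log2 change 0.28 ± 0.053 SE, adjusted p = 0.00201). Replicate 2 was highest. Set against Cdkn1b, the gene of the related inhibitor p27, the ratio of Cdkn1a was 43.8 in replicate 2 and 27.1 ± 0.83 in the others (SD, n = 3), with Cdkn1b itself lower in replicate 2. Btg2, which slows division by recruiting a deadenylase to mRNA, had 159.5 TPM in replicate 2, against 146, 141 and 143 TPM in replicates 1, 3 and 4 (log2 change 0.21 ± 0.045 SE, adjusted p = 0.00376).

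The polo-like kinases Plk2 and Plk3, stress-induced relatives of the mitotic kinase Plk1, both passed the test, with unlike fitted changes. Plk2 had 127 TPM in replicate 2, against 72.6, 66.8 and 66.7 TPM in replicates 1, 3 and 4 (log2 change 0.95 ± 0.061 SE, adjusted p = 1.90e-07). Plk3 had 127 TPM in replicate 2, against 125, 111 and 113 TPM in replicates 1, 3 and 4 (log2 change 0.20 ± 0.063 SE, adjusted p = 0.0433), with replicate 1 close under replicate 2. The call for Plk3 was lost with DESeq2 (adjusted p = 0.0983) and with scaling by total counts (adjusted p = 0.0867). The Plk2 to Plk3 ratio was 0.999 in replicate 2 and 0.592 ± 0.012 in replicates 1, 3 and 4 (SD, n = 3). Sfn, or 14-3-3 sigma, which keeps the mitotic kinase complex in the cytoplasm, had 78.0 TPM in replicate 2, against 72.7, 56.9 and 57.9 TPM in replicates 1, 3 and 4 (log2 change 0.38 ± 0.12 SE, adjusted p = 0.0449). Its replicate 1 lay nearer to replicate 2 than to replicates 3 and 4, and the call was lost with scaling by total counts (adjusted p = 0.0687).

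The Gadd45 genes encode small stress sensors that act on p38 kinase signalling, and none of the 3 was called higher in replicate 2. Gadd45b, the most abundant, had 170.1 TPM in replicate 2, against 177, 167 and 164 TPM in replicates 1, 3 and 4, within the spread (log2 change 0.07 ± 0.057 SE, adjusted p = 0.477). Gadd45g had 30.8 TPM in replicate 2, against 40.8, 40.6 and 43.5 TPM in replicates 1, 3 and 4, lower in replicate 2 with no overlap (log2 change −0.38 ± 0.11 SE, adjusted p = 0.0312), a call lost with DESeq2 (adjusted p = 0.106). Gadd45a, the family member whose gene p53 binds, was the least abundant at 5.84 TPM in replicate 2, against 7.04, 6.31 and 6.94 TPM in replicates 1, 3 and 4 (log2 change −0.15 ± 0.20 SE, adjusted p = 0.667).

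Of the 12 apoptosis genes, 11 were higher in replicate 2 (91.7%) and 1 was lower (8.33%), beside 10.9% and 10.2% of all genes, with a median log2 change of 0.60. Bax (chr7:45461697-45466898, minus strand), the pore-forming protein of the mitochondrial outer membrane, had 488 TPM in replicate 2, against 408, 382 and 409 TPM in replicates 1, 3 and 4 (log2 change 0.35 ± 0.05 SE, adjusted p = 2.36e-04). Replicate 2 was above the others, but the ratio of Bax to the survival gene Bcl2 was not: it was 4.85 in replicate 2 and 5.15, 4.6 and 5.13 in replicates 1, 3 and 4. The row Gm45808 overlaps Bax on the same strand, so reads shared by both are uncertain. The BH3-only proteins Puma and Noxa block the survival proteins of the BCL2 family. Bbc3, the Puma gene, had 76.7 TPM in replicate 2, against 55.6, 50.4 and 54.2 TPM in replicates 1, 3 and 4 (log2 change 0.58 ± 0.086 SE, adjusted p = 2.86e-04). Pmaip1, the Noxa gene, had 47.7 TPM in replicate 2, against 33.5, 30.8 and 30.7 TPM in replicates 1, 3 and 4 (log2 change 0.65 ± 0.094 SE, adjusted p = 2.47e-04). Both were highest in replicate 2 with no overlap.

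Downstream of the mitochondrion, Apaf1, the scaffold of the apoptosome that activates caspase-9, had 62.1 TPM in replicate 2, against 53.3, 51 and 49.0 TPM in replicates 1, 3 and 4 (log2 change 0.34 ± 0.052 SE, adjusted p = 3.72e-04). Pidd1, the scaffold of the complex that activates caspase-2, had 63.8 TPM in replicate 2, against 39.6, 37.5 and 42.8 TPM in replicates 1, 3 and 4 (log2 change 0.73 ± 0.07 SE, adjusted p = 7.16e-06). Aen, a nuclease induced by p53 that cuts DNA in dying cells, had 71.5 TPM in replicate 2, against 61.7, 60.8 and 59.7 TPM in replicates 1, 3 and 4 (log2 change 0.30 ± 0.044 SE, adjusted p = 2.95e-04). In all 3 genes replicate 2 was the highest library, and the change of Pidd1 was over 1.5-fold. Eda2r, a member of the TNF receptor family on the X chromosome, was low, with 12.1 TPM in replicate 2, against 6.91, 6.82 and 6.87 TPM in replicates 1, 3 and 4 (log2 change 0.88 ± 0.10 SE, adjusted p = 3.74e-05). Its level in replicates 1, 3 and 4 had the smallest coefficient of variation of any member at 5 TPM or more, 0.648%. That value rests on 403, 422 and 453 counts and is smaller than counting error alone would give.

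Phlda3, a pleckstrin-homology protein that keeps the survival kinase AKT off the membrane, had 321 TPM in replicate 2, against 186, 172 and 186 TPM in replicates 1, 3 and 4 (log2 change 0.89 ± 0.048 SE, adjusted p = 4.16e-08). Trp53inp1, a stress protein that promotes p53 activity and autophagy, had 154 TPM in replicate 2, against 87.0, 80.2 and 81.6 TPM in replicates 1, 3 and 4 (log2 change 0.95 ± 0.051 SE, adjusted p = 4.08e-08). Ei24, a membrane protein of the endoplasmic reticulum, had 184 TPM in replicate 2, against 125, 124 and 127 TPM in replicates 1, 3 and 4 (log2 change 0.61 ± 0.044 SE, adjusted p = 5.59e-07). These 3 were each over 1.5-fold higher, with replicates 1, 3 and 4 close together. Zmat3, a zinc finger RNA-binding protein, had 95.2 TPM in replicate 2, against 74.8, 73.9 and 71.0 TPM in replicates 1, 3 and 4 (log2 change 0.44 ± 0.048 SE, adjusted p = 2.48e-05), again with replicate 2 clear of the rest. Perp, a membrane protein of desmosomes that also promotes apoptosis, was the exception. It had 176 TPM in replicate 2, against 238, 210.5 and 200.1 TPM in replicates 1, 3 and 4, lowest in replicate 2 (log2 change −0.24 ± 0.076 SE, adjusted p = 0.0426), and the call was lost with DESeq2 (adjusted p = 0.318) and with a robust prior (adjusted p = 0.173).

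Of the genes of DNA repair and nucleotide supply, 2 of 5 were higher in replicate 2 (40.0%, beside 10.9% of all genes) and none lower (10.2% of all genes), with a median log2 change of 0.22. Polk, a polymerase that copies past damaged bases, had 92.5 TPM in replicate 2, against 71.9, 71.4 and 75.8 TPM in replicates 1, 3 and 4 (log2 change 0.40 ± 0.045 SE, adjusted p = 2.62e-05). Xpc, the damage sensor of nucleotide excision repair, had 15.9 TPM in replicate 2, against 12.9, 12.9 and 13.4 TPM in replicates 1, 3 and 4 (log2 change 0.35 ± 0.095 SE, adjusted p = 0.0201). Replicate 2 was the highest library for both. The group also takes in Sesn1, placed there although its protein acts on growth signalling. Sesn1, a sestrin that restrains the growth kinase mTORC1, had 27.4 TPM in replicate 2, against 24.0, 24.4 and 25.2 TPM in replicates 1, 3 and 4, not past the threshold (log2 change 0.22 ± 0.089 SE, adjusted p = 0.104). Ddb2, which recognises ultraviolet lesions, had 11.1 TPM in replicate 2, against 12.8, 12.6 and 11.8 TPM in replicates 1, 3 and 4, and Rrm2b, the p53-induced subunit of ribonucleotide reductase, had 13.0 TPM, against 14.4, 16.3 and 15.6 TPM. Replicate 2 was the lowest library for both, and neither difference was called (adjusted p = 0.656 and 0.219). Sesn1 and Rrm2b each overlap another gene on the same strand, so shared reads are uncertain.

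The members' median log2 change in replicate 2 was positive both with and without a promoter pair. Over the 5 tested members with paired half-sites it was 0.39. Over the 13 members whose window held neither a pair nor a single exact half-site it was 0.34. For the 8 with a single half-site and no pair it was 0.32. Genes outside the members had medians of 0.0239 with a pair, 0.0012 with neither and −0.0019 with a single half-site.

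Targets of p53 outside the 34 members, from a list of 40, were also mostly higher. Of 38 tested, 22 were higher in replicate 2 (57.9%) and 1 was lower (2.63%), beside 10.9% and 10.2% of all genes, with a median log2 change of 0.32. Sulf2, a sulfatase of the cell surface, had 36.2 TPM in replicate 2 and 18.2 ± 0.481 TPM in replicates 1, 3 and 4 (log2 change 1.05 ± 0.078 SE, adjusted p = 6.77e-07). Dcxr, a carbonyl reductase, had 175 TPM in replicate 2 and 89.5 ± 1.15 TPM in replicates 1, 3 and 4 (log2 change 1.03 ± 0.079 SE, adjusted p = 8.95e-07). Klhl26, a Kelch protein, had 19.3 TPM in replicate 2 and 10.6 ± 0.419 TPM in replicates 1, 3 and 4 (log2 change 0.93 ± 0.11 SE, adjusted p = 4.13e-05). The most abundant was Rps27l, a ribosomal protein homologue whose promoter pair is printed above, at 1004 TPM in replicate 2 and 870.4 ± 30.8 TPM in replicates 1, 3 and 4 (log2 change 0.27 ± 0.051 SE, adjusted p = 0.00223). The exception was Gls2, a mitochondrial glutaminase, with 27.4 TPM in replicate 2 and 36.8 ± 2.42 TPM in replicates 1, 3 and 4 (log2 change −0.37 ± 0.098 SE, adjusted p = 0.0165). The list was drawn up with earlier results of these data known, so its direction is not independent evidence.

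**Figure D3:**
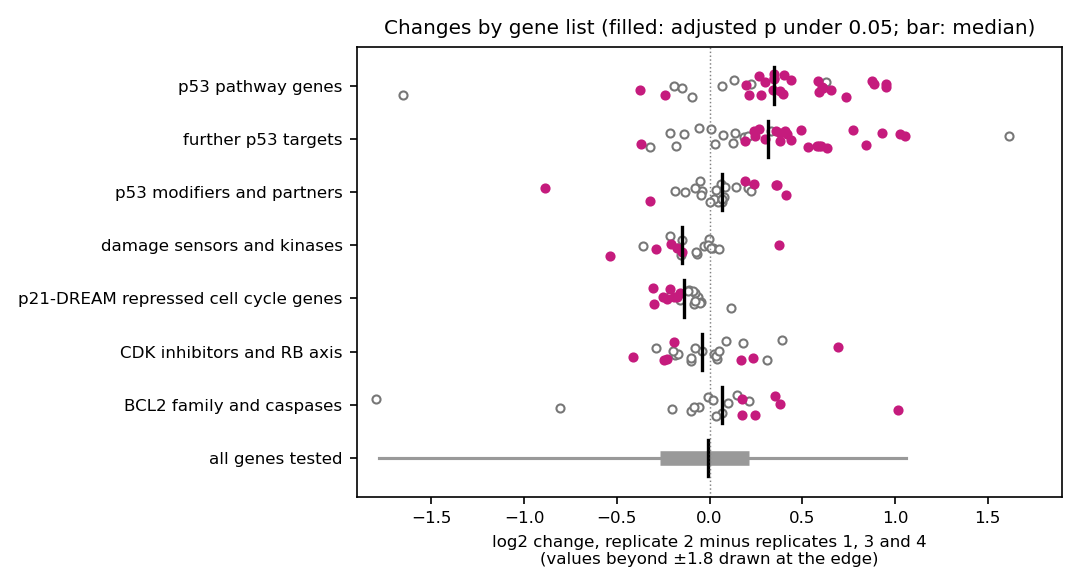
Log2 change in replicate 2 over replicates 1, 3 and 4 for each tested gene of the p53 pathway and of 6 related lists, with filled points at adjusted p under 0.05 and black bars at list medians; the grey bar and line run between quartiles and between the 5th and 95th percentiles of all genes tested. The medians are 0.35 for the p53 pathway genes and 0.32 for further targets, and lie between −0.15 and 0.07 for the other 5 lists.

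Upstream of p53, 19 damage sensors and kinases were tested. In replicate 2, 1 was higher (5.26%) and 5 were lower (26.3%), beside 10.9% and 10.2% of all genes, with a median log2 change of −0.15. Nbn, of the complex that binds broken DNA ends, had 25.3 TPM in replicate 2 and 38.2 ± 1.28 TPM in replicates 1, 3 and 4 (log2 change −0.53 ± 0.10 SE, adjusted p = 0.0018). Atr, the kinase of stalled replication forks, had 8.07 TPM in replicate 2 and 10.3 ± 0.779 TPM in replicates 1, 3 and 4 (log2 change −0.29 ± 0.076 SE, adjusted p = 0.0157). Rad9a, of the clamp loaded at damaged sites, was the one that rose, with 145 TPM in replicate 2 and 116 ± 5.28 TPM in replicates 1, 3 and 4 (log2 change 0.38 ± 0.06 SE, adjusted p = 5.16e-04). H2afx, the histone phosphorylated around breaks and the most abundant of the list, had 226 TPM in replicate 2 and 262 ± 3.66 TPM in replicates 1, 3 and 4 (log2 change −0.15 ± 0.043 SE, adjusted p = 0.0264).

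Among 26 modifiers and partners of p53, 5 were higher in replicate 2 (19.2%) and 2 lower (7.69%), beside 10.9% and 10.2% of all genes, with a median log2 change of 0.07. Hipk2, a kinase that phosphorylates p53 for apoptosis, fell the most, with 9.16 TPM in replicate 2 and 17.7 ± 1.08 TPM in replicates 1, 3 and 4 (log2 change −0.89 ± 0.094 SE, adjusted p = 1.78e-05). Rpl5, Rpl11 and Rpl23, ribosomal proteins that can bind and block Mdm2, all rose. Rpl5 had 351 TPM in replicate 2 and 276 ± 11.0 TPM in replicates 1, 3 and 4 (log2 change 0.41 ± 0.052 SE, adjusted p = 7.99e-05). Rpl11 had 466 TPM in replicate 2 and 378 ± 13.7 TPM in replicates 1, 3 and 4 (log2 change 0.36 ± 0.051 SE, adjusted p = 1.82e-04), and Rpl23 had 1273 TPM in replicate 2 and 1035 ± 51 TPM in replicates 1, 3 and 4 (log2 change 0.36 ± 0.054 SE, adjusted p = 3.37e-04). Npm1, the nucleolar partner of p19Arf, was the most abundant of the list, with 2803 TPM in replicate 2 and 3025 ± 198 TPM in replicates 1, 3 and 4 (log2 change −0.05 ± 0.058 SE, adjusted p = 0.62).

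A further list holds cell cycle genes that p21 is known to repress through the DREAM complex. Of its 20 genes none was higher in replicate 2 and 8 were lower (40.0%), beside 10.9% and 10.2% of all genes, with a median log2 change of −0.14. Ccnb2, a mitotic cyclin, had 108 TPM in replicate 2 and 139 ± 8.40 TPM in replicates 1, 3 and 4 (log2 change −0.31 ± 0.077 SE, adjusted p = 0.0126). Bub1, a kinase of the spindle checkpoint, had 51.8 TPM in replicate 2 and 66.5 ± 1.87 TPM in replicates 1, 3 and 4 (log2 change −0.30 ± 0.054 SE, adjusted p = 0.00137), and Prc1, a midzone protein of the spindle, had 25.6 TPM in replicate 2 and 31.8 ± 2.08 TPM in replicates 1, 3 and 4 (log2 change −0.25 ± 0.069 SE, adjusted p = 0.0195). Cdc20, the activator of the anaphase complex and the most abundant, had 234 TPM in replicate 2 and 254 ± 2.51 TPM in replicates 1, 3 and 4 (log2 change −0.06 ± 0.045 SE, adjusted p = 0.395). Ccna2, the S phase cyclin, had 147 TPM in replicate 2 and 177 ± 7.47 TPM in replicates 1, 3 and 4 (log2 change −0.21 ± 0.054 SE, adjusted p = 0.0127).

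In the list of other kinase inhibitors and the RB axis, 3 of 23 were higher in replicate 2 (13.0%) and 4 lower (17.4%), near the 10.9% and 10.2% of all genes, with a median log2 change of −0.04. Ccnd2, the D-type cyclin of lymphocytes, had 569 TPM in replicate 2 and 367 ± 2.67 TPM in replicates 1, 3 and 4 (log2 change 0.69 ± 0.04 SE, adjusted p = 7.67e-08). Cdkn1b, the p27 gene, had 31.1 TPM in replicate 2 and 43.3 ± 1.96 TPM in replicates 1, 3 and 4 (log2 change −0.41 ± 0.076 SE, adjusted p = 0.00165), and Rbl1, which encodes p107, a relative of RB, had 26.2 TPM in replicate 2 and 32.5 ± 1.06 TPM in replicates 1, 3 and 4 (log2 change −0.25 ± 0.073 SE, adjusted p = 0.0284). Pcna, the sliding clamp of replication, had 349.7 TPM in replicate 2 and 391 ± 14.7 TPM in replicates 1, 3 and 4 (log2 change −0.10 ± 0.052 SE, adjusted p = 0.217). In the BCL2 family and caspases 6 of 19 were higher in replicate 2 (31.6%) and none lower, beside the same shares of all genes, with a median of 0.07, and the 6 include genes on both sides of the balance. Bcl2l11, the gene of the BH3-only protein Bim, had 19.2 TPM in replicate 2 and 9.92 ± 0.676 TPM in replicates 1, 3 and 4 (log2 change 1.01 ± 0.096 SE, adjusted p = 6.37e-06). The survival genes Bcl2 and Mcl1 had 100.5 TPM in replicate 2 and 80.6 ± 2.04 TPM in replicates 1, 3 and 4 (log2 change 0.38 ± 0.047 SE, adjusted p = 7.35e-05) and 388 TPM in replicate 2 and 316 ± 2.91 TPM in replicates 1, 3 and 4 (log2 change 0.35 ± 0.045 SE, adjusted p = 8.26e-05). Bcl2l1, which encodes the survival protein Bcl-xL, had 333 TPM in replicate 2 and 308 ± 2.94 TPM in replicates 1, 3 and 4 (log2 change 0.17 ± 0.044 SE, adjusted p = 0.0133).

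General stress genes had log2 changes of both signs in replicate 2, most of them negative, with a median of −0.23, beside −0.01 over all genes. Of 10 listed, 2 had a positive log2 change, the heat shock genes Hspa1a (1.19) and Hspa1b (0.70). The rest had a negative one, among them Trib3 (−1.23), Ddit3 (−0.79), Jun (−0.39) and Egr1 (−0.18), with smaller ones for Atf4 (−0.12) and Hmox1 (−0.09). The list summed to 1123 TPM in replicate 2 and 1324 to 1362 TPM in replicates 1, 3 and 4. Most of each sum was Atf4, with 808 TPM in replicate 2, against 921, 917 and 914 TPM in replicates 1, 3 and 4. The part of this in the p53 result was not tested.

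Between the other 3 libraries few of these genes were called. Set against the 3 remaining libraries, replicate 1, replicate 3 and replicate 4 had no member called by edgeR, and no gene at all of 17337. Members with an unadjusted p under 0.05 numbered 1, 0 and 0, beside 180, 272 and 146 of all genes, and DESeq2 called no member either. DESeq2 called 0 genes higher and 0.0115% of genes lower for replicate 1, 0.0808% higher and 0.00577% lower for replicate 3, and 0.00577% higher and 0.0115% lower for replicate 4. In these comparisons replicate 2 is among the remaining libraries, which widens their spread, and the members' medians were −0.12, −0.15 and −0.13. The SE of Phlda3, for example, was 0.41, 0.39 and 0.41 for replicates 1, 3 and 4, against 0.048 for replicate 2. Such fits could hardly call a gene, so the lack of calls does not show that replicates 1, 3 and 4 agree. With replicate 2 left out, replicate 1 had 2 members higher than replicates 3 and 4, Sfn (log2 change 0.35 ± 0.094 SE, adjusted p = 0.0409) and Perp (0.22 ± 0.06 SE, adjusted p = 0.0431), where 0.295% of 16610 genes were higher and 0.313% lower. Replicates 3 and 4 had no member called in these fits, where 0.512% of genes were higher and 0.102% lower for replicate 3, and 0.0722% higher and 0.157% lower for replicate 4. The 31 members at 5 TPM or more had coefficients of variation of 0.648% to 14.1% among replicates 1, 3 and 4, with a median of 4.08%, close to the 3.93% of all 10238 genes at that level.

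**Figure D4:**
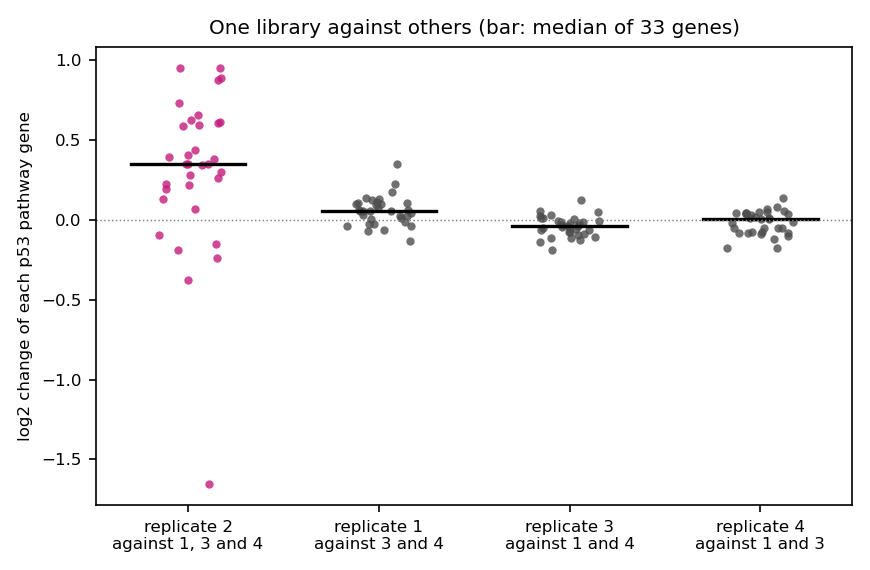
Log2 change of each of the 33 tested p53 pathway genes in 1 library over the others (points) with the median (bar); replicate 2 is set against replicates 1, 3 and 4, and each of these against the other 2 with replicate 2 left out. The medians are 0.35 for replicate 2 and 0.05, −0.04 and 0.00 for replicates 1, 3 and 4, whose points stay between −0.19 and 0.35.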

How the data were processed

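Transcripts were measured by RNA-seq in 4 Th17 libraries of 1 group. The labels call the assay total RNA-seq but link a poly(A)+ library protocol, so levels of transcripts without a poly(A) tail may depend on which was used. The authors counted read pairs per gene with featureCounts 1.4.6-p4 on strand option 2, with both ends mapped, against GENCODE M13, per the file headers; the build is mm10, per the labels. The deposited values are raw counts, and a Length column gives the summed exon bases of each gene. Which aligner was used is not given in the sources used here. No option for reads matching several genes appears in the counting command, so such reads may be missing from genes with near-identical copies.

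Symbols came from GENCODE vM21 by identifier (50376 of 50600 matched). Of the 27 listed p53 modifiers and partners 26 matched. TPM was computed from counts and Length. Genes with at least 10 summed counts were tested with edgeR 4.0.16 (R 4.3.3): TMM scaling, quasi-likelihood test, Benjamini-Hochberg adjustment, threshold 0.05. The level fit has an intercept only, with length and library scale as offset, against 1 TPM. Its F value was computed from the fitted deviances, outside edgeR's own test function. Its p-value was the larger of that of F and that of a Poisson likelihood-ratio test. SE was taken as the size of the log2 change divided by the root of its F value. The fits were tested on simulated data. Total counts of 33123029 to 37746767 set the counting error; the floor of 3 counts covers that error only, while SEs and p-values take in the spread between libraries. Alternatives were other scalings, DESeq2 1.42.0, other filters, 2 TPM, TPM without mitochondrial genes, each library left out and, added after the data were seen, a robust prior.

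The members and lists were chosen with earlier results of these data known. The text names every member, with values in each library for those at a mean of 20 TPM or more or called in replicate 2. Of each related list it names up to 3 called genes with the largest change at 5 TPM or more and the 2 of highest level, except 1 gene that is not reported here. Gls2, Cdkn1b where set beside Cdkn1a, and the marker and stress genes named were chosen after their values were seen. Sequences are RefSeq's on GRCm38.p6; motifs were scanned with Python 3.11.15.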

Additional observations from a re-analysis of the deposited data

Results flagged for a closer look

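In 13 of the 33 members tested, 1 of the 4 libraries lay far from the rest: its gap to the nearest library, as a share of the whole range of the 4 TPM values, passed Dixon's 95% critical value for 4 samples. That library was replicate 2 each time, as the highest in 12 genes and the lowest in 1. Chance flags about 1 in 20 groups, and the genes share the libraries. The same screen over all 17337 genes tested passed 10.5% of them, with replicate 2 highest in 3.46%, lowest in 3.96% and another library apart in 3.11%, beside 39.4% of the members. Replicate 2 was thus set apart in genes outside the pathway too. Among apoptosis genes the share was 0.983 for Eda2r, 0.952 for Ei24, 0.907 for Trp53inp1, 0.905 for Phlda3, 0.843 for Zmat3, 0.832 for Pmaip1 and 0.831 for Aen. Among the regulators it was 0.945 for Ccng1 and 0.909 for Mdm2, and 0.919 for Cdkn2a, the gene in which replicate 2 was lowest, with 3 counts. Plk2 had 0.902, Trp73 had 0.847 and Xpc had 0.831. Cdkn2a and Trp73 rest on few counts and their differences were not called. For Eda2r, replicates 1, 3 and 4 lay closer together than counting error alone would give, which raises its share.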

How the results depend on the processing

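The count of members above 1 TPM was 31 under all 8 alternatives. Members below it numbered 1, but 2 with no filter, which adds Trp63, and 2 against 2 TPM, which adds Cdkn2a (log2 level −1.69, adjusted p = 0.00822). In replicate 2 the count of members higher was 23 and ran from 21 with scaling by total counts to 24 without replicate 1. The count of members lower was 2, but 0 with DESeq2 and 1 with the robust prior; Gadd45g had a log2 change of −0.38 and Perp −0.24 in DESeq2, with their directions kept, and the cause was not tested. For replicate 1, members higher ran from 0 to 2 over the libraries left out in turn, the 2 without replicate 2. Of the 25 called members 21 kept their call under all 9 alternatives and 4 lost it under at least 1; no result reversed. Over all genes, the number called in replicates 1, 3 and 4 was 0 in either direction, but DESeq2 called up to 14 and the fits without replicate 2 up to 85; the number of genes below 1 TPM was 2864, against 8119 with no filter, 291 with a filter of 100 counts and 4518 against 2 TPM. No paired analysis was possible because the libraries form 1 group. Depth limits Trp63, Trp73 and Cdkn2a, whose counts per library were at most 36.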

Other observations

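Beyond the members and the further targets, 103 tested genes had paired p53 half-sites in a RefSeq promoter window, by the same search. Of these 21 (20.4%) were higher in replicate 2 than in replicates 1, 3 and 4, and 10 (9.71%) were lower, with a median log2 change of 0.02. Among 10483 tested genes whose windows held neither a pair nor an exact half-site, 12.6% were higher and 11.7% lower, with a median of 0.00. Genes with a single half-site and no pair had 11.8% of 895 higher and 11.7% lower. The grouping was made after the values were seen, is a description with no test, and a match in a window says nothing of binding in these cells.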
